A study of Mus musculus with 9 samples.

Results

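The stromal vascular fraction (SVF) of the inguinal subcutaneous fat was compared between day 3 and day 1 after priming, in 6 of the 9 arrays of the series. The members were every array titled as day 3 (n = 3 mice) and every array titled as day 1 (n = 3 mice), and the comparison was made over all genes of the array that passed a filter on detection. All mice were wild type BALB/c, 10 weeks old and, by the study's methods, male. The labels name only surgical injury of the inguinal fat. The study's methods place these arrays after priming, under which they list injury, ischemia or both. The heading of its results on these arrays names both, that is mincing of the fat together with ligation of its feeding artery. No sham-operated arrays of days 1 and 3 were analysed here, so the change with time after surgery and any change of the uninjured animal over the same interval cannot be told apart. The 3 arrays of day 0, which the labels place at the day of injury, are given beside single results as a reference level.

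The SVF is what is left of fat after enzymatic digestion once the lipid-filled adipocytes have floated off, and it holds stromal progenitors, fibroblasts, endothelial cells, pericytes, macrophages and lymphocytes. After a wound, neutrophils and inflammatory monocytes enter first and release cytokines, chemokines and antimicrobial proteins. In the following days macrophages clear debris, stromal and vascular cells divide, and fibroblasts lay down collagen and other matrix.

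RNA was measured on 3′ expression arrays, on which each probe set reports a MAS5 signal, a brightness on a linear scale that the authors had scaled to a trimmed mean of 500 on every array. The 6 arrays had present calls, MAS5's call that a probe set is above background, for 24106 to 25557 of 45101 probe sets. Pearson's r between log2 signals was 0.971 to 0.988 within a day and 0.953 to 0.971 across the days. Markers of the cells an SVF should hold were called present on all 6 arrays, among them Ptprc of leukocytes, Adgre1 and Mrc1 of macrophages, Pdgfra of stromal progenitors and Pecam1 of endothelium. Adipoq, a product of adipocytes, was also present on all 6 arrays, and its log2 change of -0.30 ± 0.27 (adjusted p = 0.481) did not pass the test. Plin1, Lep, Ly6c2 and Cspg4 were not analysed here. Changes below are log2 of the signal on day 3 minus day 1 with the SE of the fit (limma, two-sided, Benjamini-Hochberg over 11796 genes), and rose and fell are used of changes with an adjusted p under 0.05.

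Of 11796 genes tested, 1676 changed between the days (14.2%). More genes rose than fell, 1140 (9.66%) against 536 (4.54%), and the share of rises among the calls was 68.0%. This share depended on how arrays were scaled: it was 57.4% with quantile normalization and 43.4% when each array was centred on its median, while the median log2 change of all genes tested moved from 0.09 to 0.00 and -0.04. Changes of 2-fold or more were nearer to balance, with 245 genes higher (2.08%) and 189 lower (1.6%). The 3 arrays of one day all lay above the 3 of the other in 4125 genes (35%), so that a lack of overlap alone says little here. Of the 1676 genes called, 1671 had days that did not overlap. Where a lack of overlap is given below for a called gene, it describes the signals and is no further result. Since the RNA is of whole SVF, a cell type that became rarer and one that held less of an RNA cannot be told apart in any result below.

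**Figure D1:**
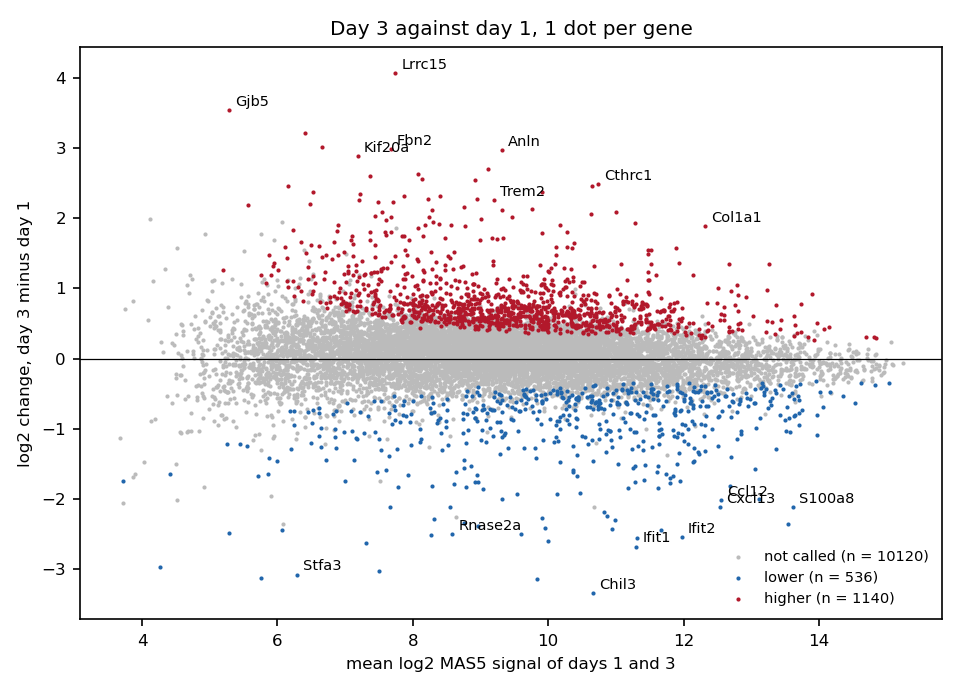
Each dot is 1 of 11796 genes, with the mean log2 MAS5 signal of the 6 arrays of days 1 and 3 on the x axis and the log2 change from day 1 to day 3 on the y axis. Red dots are the 1140 genes that rose and blue dots the 536 that fell at an adjusted p under 0.05, and grey dots were not called. The largest rises include Lrrc15 and Anln, and the largest falls include Chil3 and Ifit1.

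The largest rises included a fibroblast surface protein, a connexin, matrix proteins, a secreted protein related to C1q and proteins of cell division. Lrrc15, a surface protein of activated fibroblasts, had signals of 32.7, 58.7 and 74.2 on the arrays of day 1 and 938, 889.6 and 806 on those of day 3, and rose by 4.07 ± 0.28 on the log2 scale (adjusted p = 1.27e-05), with a present call on 2 of 3 arrays of day 1. Fbn2, the microfibril protein fibrillin-2, went from 103, 69.7 and 53.0 to 629.9, 721 and 421 and rose by 2.99 ± 0.28 on the log2 scale (adjusted p = 0.000106), with a present call on 2 of 3 arrays of day 1. C1qtnf3, a secreted protein of the C1q and tumor necrosis factor related family, went from 38.4, 19.5 and 58.9 to 308, 244 and 312 and rose by 3.02 ± 0.35 on the log2 scale (adjusted p = 0.0003), with a present call on 2 of 3 arrays of day 1. The largest rises and falls were chosen among genes whose days did not overlap, so the lack of overlap is no further result. The geometric means of day 0 were 51.9 for Lrrc15, 47.8 for Fbn2 and 49.8 for C1qtnf3.

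Among division genes, Anln, the contractile ring protein anillin, had signals of 245, 223 and 216 on day 1 and 1777, 1777 and 1805 on day 3, a rise by 2.97 ± 0.12 on the log2 scale (adjusted p = 2.82e-07). Ube2c, which loads ubiquitin for the anaphase-promoting complex, went from 174, 231 and 249 to 1444, 1578 and 1219 and rose by 2.70 ± 0.25 on the log2 scale (adjusted p = 0.000106). The kinesin gene Kif20a, needed for the last step of division, went from 51.8, 51.8 and 57.5 to 388, 413 and 390.5 and rose by 2.89 ± 0.22 on the log2 scale (adjusted p = 2.54e-05), with a present call on 2 of 3 arrays of day 1. Within each day the 3 mice were close together for these genes. Bub1b, of the spindle checkpoint, was absent on all day 1 arrays with signals of 7.08, 47.7 and 64.9, stood at 239, 249 and 292 on day 3, and was 9.26-fold higher on day 3 (adjusted p = 0.00924). The connexin gene Gjb5, which has no known part in division, was likewise absent on day 1 at 16.1, 4.73 and 19.8, stood at 100.2, 179 and 131 on day 3, and was 8.48-fold higher on day 3 (adjusted p = 0.00153). These folds set the geometric mean of day 3 against, on each day 1 array, the higher of the gene's own signal and the lowest signal among present probe sets. They are not lower limits: across the alternatives run the log2 change was as low as 1.68 for Bub1b and 1.36 for Gjb5. Both genes passed the filter on detection only through day 3, the day on which they were high.

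The other genes among the 15 largest rises were of matrix and of mitosis. Ccn4, a matricellular protein, rose by 2.63 ± 0.22 on the log2 scale (adjusted p = 6.64e-05), and Cthrc1, a secreted protein of collagen-forming fibroblasts, rose by 2.49 ± 0.17 on the log2 scale (adjusted p = 1.19e-05). Col12a1, a collagen that sits on the surface of fibrils, rose by 2.46 ± 0.24 on the log2 scale (adjusted p = 0.000127). P4ha3, a subunit of the prolyl hydroxylase that stabilizes collagen, rose by 2.45 ± 0.65 on the log2 scale (adjusted p = 0.0274), with a present call on 1 of 3 arrays of day 1, a call lost without day 1 replicate 2 or day 3 replicate 1, 2 or 3, each left out alone (adjusted p = 0.0718 to 0.0916). The mitotic genes Depdc1a, Cdca3 and Ccnb2, the latter encoding cyclin B2, rose by 2.61 ± 0.42 (adjusted p = 0.00226), 2.56 ± 0.24 (adjusted p = 0.000103) and 2.54 ± 0.14 (adjusted p = 3.17e-06) on the log2 scale. The other probe sets of Cdca3 gave -0.15 ± 0.51 (adjusted p = 0.877 over all probe sets) and 0.53 ± 0.38 (adjusted p = 0.386 over all probe sets). The mean of its probe sets was not called at 0.98 (adjusted p = 0.0600).

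The largest falls included products of myeloid cells and of interferon-induced genes. Chil3, a chitinase-like protein of inflammatory monocytes and macrophages, had signals of 4499.7, 6846 and 4454 on day 1 and 444, 572 and 522 on day 3, and fell by 3.34 ± 0.57 on the log2 scale (adjusted p = 0.00348). Il1f9, the cytokine IL-36 gamma, went from 5144, 1629.5 and 2386 to 246, 421 and 284 and fell by 3.14 ± 0.73 on the log2 scale (adjusted p = 0.0163), a call lost without day 1 replicate 1 (adjusted p = 0.0540) or day 3 replicate 1 (adjusted p = 0.0661). Saa1, a serum amyloid of the acute phase, went from 513, 519 and 230.2 to 66.4, 70.0 and 55.6 and fell by 2.63 ± 0.33 on the log2 scale (adjusted p = 0.000474). The geometric means of day 0 were lower than those of day 3 for Chil3, at 15.5, and Il1f9, at 21.9. Ifit1, which binds viral RNA, went from 6624, 5905 and 6669.7 to 835, 723 and 1651 and fell by 2.68 ± 0.27 on the log2 scale (adjusted p = 0.000126). Its relative Ifit1bl2 went from 861, 379.8 and 418 to 26.4, 69.8 and 136 and fell by 3.03 ± 0.50 on the log2 scale (adjusted p = 0.00258), with a present call on 1 of 3 arrays of day 3. Stfa3, a stefin of neutrophils, was present on day 1 at 391, 184 and 165 and absent on day 3 at 64.8, 34.9 and 8.69. With day 3 signals set no lower than the lowest present signal of each array, it was 8.07-fold lower on day 3 (adjusted p = 0.00892). It passed the filter on detection only through day 1, and its log2 change was as small as -1.60 across the alternatives run.

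A pair of the largest falls were of genes known from germ cells and the male tract. Ddx4, an RNA helicase of germ cells, had signals of 163, 177 and 143 on day 1, 18.2, 11.7 and 28.7 on day 3 and 16.3, 19.5 and 37.8 on day 0, and fell by 3.13 ± 0.41 on the log2 scale (adjusted p = 0.000704), with a present call on 2 of 3 arrays of day 3. Lcn8, a lipocalin known from the epididymis, stood at 69.6, 46.7 and 48.9 on day 1 and 46.3, 3.72 and 1.91 on day 3, and fell by 2.97 ± 0.89 on the log2 scale (adjusted p = 0.0456), with a present call on 1 of 3 arrays of day 3. Its signals on day 3 replicates 2 and 3 lay below the lowest signals of present probe sets there, 10.2 and 9.95. Across the alternatives run its log2 change was as small as -0.59, so the size of the fall is uncertain. In Ddx4 the day 1 mice stood apart from both other days, while in Lcn8 the day 3 mice were themselves far apart and the brightest of them nearly reached day 1, and Lcn8 was not called without day 0 replicate 1, 2 or 3, day 1 replicate 1, 2 or 3 or day 3 replicate 2 or 3, each left out alone (adjusted p = 0.0507 to 0.153). The other large falls were Ifit1bl1 at -2.60 ± 0.34 (adjusted p = 0.000644), Ifit3 at -2.55 ± 0.27 (adjusted p = 0.000195), Ifit2 at -2.55 ± 0.32 (adjusted p = 0.000547), the neutrophil granule protein Olfm4 at -2.51 ± 0.55 (adjusted p = 0.0126), Jchain, which joins immunoglobulin chains, at -2.50 ± 0.57 (adjusted p = 0.0140), and the eosinophil ribonuclease Rnase2a at -2.50 ± 0.30 (adjusted p = 0.000351), all on the log2 scale. Sptssb, a small subunit of the enzyme that starts sphingolipid synthesis, was absent on day 3 and 5.20-fold lower there, reckoned as for Stfa3 (adjusted p = 0.00911). It passed the filter on detection only through day 1, and its log2 change was as small as -0.95 across the alternatives run. Jchain was not called without day 1 replicate 2 (adjusted p = 0.0607), day 3 replicate 1 (adjusted p = 0.0546) or day 3 replicate 2 (adjusted p = 0.0657).

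**Figure D2:**
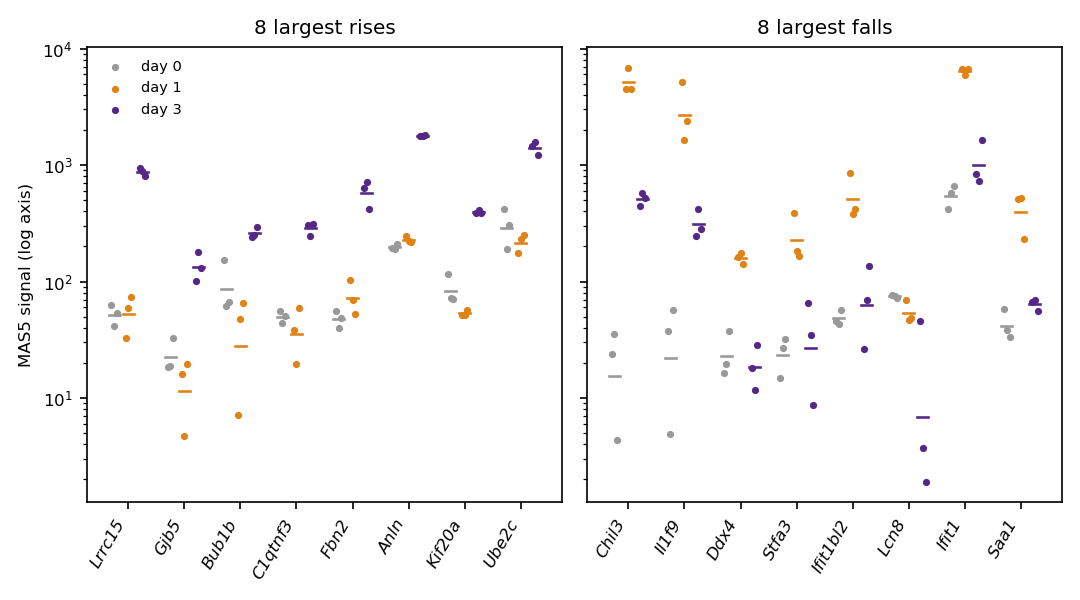
MAS5 signals (log axis) of the genes with the 8 largest rises (left) and the 8 largest falls (right), with 1 dot per mouse and a line at the geometric mean of each day. Day 0 is grey, day 1 orange and day 3 purple. For all 16 genes the dots of day 3 lie wholly above or wholly below those of day 1, which was a condition of their choice. Lcn8 has the closest of these pairs of days and is the most scattered within day 3.

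Most genes of mitosis rose. These genes build the spindle, condense chromosomes and drive the cell through anaphase and cytokinesis, and of the 59 tested 54 rose (91.5%, against 9.66% of all genes) and 0 fell, with a median log2 change of 1.69 against 0.09 over all genes. By 2-fold or more, 51 rose. The mean log2 signal of the list, set to 0 at the mean of day 1, was -0.03 to 0.03 on the arrays of day 1, 1.62 to 1.65 on those of day 3 and -0.22 to 0.31 on those of day 0, so the 3 mice of each of days 1 and 3 were nearly alike. The members that were not called were Kif18a at 0.15 ± 0.36 (adjusted p = 0.815), Ccnf at 0.22 ± 0.70 (adjusted p = 0.863), Cenpk at 0.34 ± 0.29 (adjusted p = 0.456), Smc4 at 0.44 ± 0.26 (adjusted p = 0.260) and Esco2 at 1.14 ± 0.63 (adjusted p = 0.243) on the log2 scale. Mki67, the antigen that marks dividing cells, rose by 1.58 ± 0.19 on the log2 scale (adjusted p = 0.000351), and Top2a, the topoisomerase that untangles chromosomes, rose by 1.60 ± 0.13 on the log2 scale (adjusted p = 4.02e-05).

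Promoters of this list were searched for a pair of short motifs known from genes of the division phase: TTTGAA, the core of the cell cycle homology element, and CCAAT, bound by the factor NF-Y. RefSeq promoters (GRCm38.p6, from 250 bases before to 50 after the start, both strands) were matched for 48 of the 59 members. TTTGAA was found in 71.2% of the promoters of the list and 17.9% of all promoters of the table (12.1% of those of all genes tested). CCAAT was found in 76.9%, against 37.4% of all promoters (37.1% of those of genes tested). The stretches of 150 bases given here are of 3 of the large mitotic rises and were chosen because they hold matches, while the same stretch of Anln, a larger rise, holds none of either motif. They are given with the motifs in capitals, read 5′ to 3′ on the strand of the gene and ending where transcription starts; on the opposite strand the motifs read TTCAAA and ATTGG.
Ccnb2 (chr9:70421555-70421704, minus strand): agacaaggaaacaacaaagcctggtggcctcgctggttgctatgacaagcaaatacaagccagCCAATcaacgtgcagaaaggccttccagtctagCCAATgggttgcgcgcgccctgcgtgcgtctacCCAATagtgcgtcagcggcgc
Ube2c (chr2:164769779-164769928, plus strand): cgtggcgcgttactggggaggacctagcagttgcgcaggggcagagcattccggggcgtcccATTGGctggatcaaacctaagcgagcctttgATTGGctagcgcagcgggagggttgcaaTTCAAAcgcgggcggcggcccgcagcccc
Cdca3 (chr6:124830026-124830175, plus strand): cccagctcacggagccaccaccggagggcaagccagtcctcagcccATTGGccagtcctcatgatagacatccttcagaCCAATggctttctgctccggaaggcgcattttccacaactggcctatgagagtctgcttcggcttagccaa
Ccnb2 holds 3 CCAAT matches spaced along the stretch, Ube2c 2 with 1 TTTGAA nearer the start, and Cdca3 2. A match of letters is a description of the sequence and no evidence that a factor was bound.

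Genes of DNA replication rose in part. Of 51 tested, 20 rose (39.2%) and 0 fell, with a median log2 change of 0.38 and list means of 0.41 to 0.42 on the day 3 arrays against -0.02 to 0.01 on those of day 1. The largest changes were of enzymes of nucleotide supply and of a repair protein: Tk1, the thymidine kinase of dividing cells, rose by 1.89 ± 0.16 on the log2 scale (adjusted p = 5.72e-05), Rrm2, a subunit of ribonucleotide reductase, rose by 1.64 ± 0.15 on the log2 scale (adjusted p = 0.000101), and Brca1, which acts in repair by recombination, rose by 1.32 ± 0.17 on the log2 scale (adjusted p = 0.000656). Dimmer probe sets of Brca1 gave 1.23 ± 0.44 (adjusted p = 0.0954 over all probe sets) and 0.36 ± 0.28 (adjusted p = 0.431 over all probe sets). Pcna, the sliding clamp, had a log2 change of -0.24 ± 0.12 (adjusted p = 0.190). Rises of the list numbered 11 with quantile normalization, 9 with median centring, and 12 without day 1 replicate 1, 11 without day 1 replicate 2, 10 without day 3 replicate 1, 9 without day 3 replicate 2 and 9 without day 3 replicate 3. Promoters of 41 members were matched, and TTTGGCGC or TTTCGCGC, spellings of the site of E2F factors, was found in 26.5% of their promoters against 0.813% of all promoters and 1.5% of those of genes tested. The 150 bases before the start of Tk1, Rrm2 and Brca1 hold neither spelling.

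Regulators that move cells into the cycle rose in part. Of 26 cyclins, kinases, inhibitors and E2F factors tested, 8 rose (30.8%) and 0 fell. E2f8, a repressor of the E2F family, rose by 1.47 ± 0.27 on the log2 scale (adjusted p = 0.00470), with a present call on 2 of 3 arrays of day 1, Mybl2, which switches on late cell cycle genes, rose by 1.18 ± 0.31 on the log2 scale (adjusted p = 0.0257), and Cdk6, a G1 kinase, rose by 1.07 ± 0.15 on the log2 scale (adjusted p = 0.000895). The G1 cyclin Ccnd1 rose by 0.78 ± 0.11 on the log2 scale (adjusted p = 0.000853), while Myc had a log2 change of 0.10 ± 0.16 (adjusted p = 0.722), which was not called. Mybl2 was not called without day 1 replicate 1 or day 3 replicate 1, 2 or 3, each left out alone (adjusted p = 0.0640 to 0.0923). Rises in the list numbered 5 with either rescaling of the arrays, and 3 without day 3 replicate 1, 4 without day 3 replicate 2 and 4 without day 3 replicate 3.

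Collagen genes rose for the larger part. Collagens form the fibrils, sheets and basement membranes of tissue, and of 26 tested 16 rose (61.5%) and 0 fell, with a median log2 change of 0.77. Col1a1, the main chain of type I collagen, had signals of 2954, 2032 and 3133 on day 1 and 9517, 11229.8 and 8880.5 on day 3, and rose by 1.89 ± 0.22 on the log2 scale (adjusted p = 0.000348). Col8a1, of the short-chain collagen VIII of vessel walls, went from 876, 695 and 604 to 2162, 2338 and 1986 and rose by 1.59 ± 0.16 on the log2 scale (adjusted p = 0.000154). Days 1 and 3 did not overlap in either gene, and the geometric means of day 0 lay between those of days 1 and 3, at 4436 for Col1a1 and 795 for Col8a1. The partner chain Col1a2 rose by 0.31 ± 0.08 on the log2 scale (adjusted p = 0.0219), a call lost without day 1 replicate 1 or day 3 replicate 1, 2 or 3, each left out alone (adjusted p = 0.0588 to 0.0990), the fibril-nucleating chain Col5a1 rose by 1.58 ± 0.15 on the log2 scale (adjusted p = 0.000107), and the basement membrane chain Col4a1 rose by 0.56 ± 0.11 on the log2 scale (adjusted p = 0.00773). Col3a1, the other abundant fibril collagen, had a log2 change of 0.23 ± 0.08 (adjusted p = 0.0652) and was not called, but was with the mean of its probe sets at 0.59 (adjusted p = 0.00324) and with quantile normalization at 0.31 (adjusted p = 0.0135).

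Other matrix proteins rose in part. Of 43 glycoproteins and proteoglycans tested, 20 rose (46.5%) and 2 fell, with a median log2 change of 0.30. Beside Fbn2 and Cthrc1 the largest rise was of Ltbp2, a binding protein of microfibrils, at 2.16 ± 0.21 (adjusted p = 0.000114), and tenascin C, Tnc, a matrix protein of wounds, rose by 2.09 ± 0.20 on the log2 scale (adjusted p = 0.000114). Smoc2, a calcium-binding matricellular protein, fell by 0.59 ± 0.15 on the log2 scale (adjusted p = 0.0256), and the proteoglycan decorin, Dcn, fell by 0.38 ± 0.09 on the log2 scale (adjusted p = 0.0155). Smoc2 was not called without day 1 replicate 1 or 2 or day 3 replicate 1, 2 or 3, each left out alone (adjusted p = 0.0530 to 0.109), and Dcn was not called without day 3 replicate 1 (adjusted p = 0.0763) or day 3 replicate 2 (adjusted p = 0.0512). Rises numbered 13 without day 3 replicate 2. Falls numbered 5 with median centring or array weights, 6 without day 1 replicate 3, 0 without day 3 replicate 1, and 1 without any other single array of days 1 and 3.

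Many enzymes that modify and crosslink collagen rose. Of 22 tested, 12 rose (54.5%) and 1 fell, with a median log2 change of 0.45. Lox, the oxidase that starts crosslinks, rose by 1.35 ± 0.15 on the log2 scale (adjusted p = 0.000215), and Plod2, which hydroxylates lysines at crosslink sites, rose by 1.34 ± 0.25 on the log2 scale (adjusted p = 0.00568). Pcolce2, an enhancer of the trimming of procollagen, fell by 0.93 ± 0.19 on the log2 scale (adjusted p = 0.00801). For Lox a dimmer probe set gave -0.17 ± 0.50 (adjusted p = 0.853 over all probe sets), opposite in sign and not called. Rises of the list numbered 7 with median centring, and 6 without day 1 replicate 2, 6 without day 3 replicate 1 and 6 without day 3 replicate 2.

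Of 23 genes of activated fibroblasts and myofibroblasts tested, 9 rose (39.1%, against 9.66% of all genes) and 2 fell (8.70%, against 4.54%). Next to Lrrc15, Adam12, a metalloprotease of fibroblasts in injured tissue, rose by 1.78 ± 0.16 on the log2 scale (adjusted p = 9.75e-05), and Snai2, a factor of mesenchymal cells, rose by 1.43 ± 0.33 on the log2 scale (adjusted p = 0.0165). The smooth muscle actin gene Acta2, which marks myofibroblasts, rose by 0.68 ± 0.13 on the log2 scale (adjusted p = 0.00582), whereas Fap had a log2 change of -0.04 ± 0.20 (adjusted p = 0.913). Pdpn, the surface protein podoplanin, fell by 0.58 ± 0.18 on the log2 scale (adjusted p = 0.0495), from a geometric mean signal of 8888 on day 1 to 5964 on day 3, with 2344 on day 0. Snai2 was not called without day 3 replicate 1 (adjusted p = 0.0667) or day 3 replicate 2 (adjusted p = 0.0592), and Pdpn was not called without day 0 replicate 2 or 3, day 1 replicate 1 or 2 or day 3 replicate 1 or 3, each left out alone (adjusted p = 0.0537 to 0.182). Rises of the list numbered 5 without day 3 replicate 1.

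Of 29 matrix proteases and inhibitors tested, 8 rose (27.6%, against 9.66% of all genes) and 2 fell (6.90%, against 4.54%). Mmp12, the elastase of macrophages, had signals of 601, 317 and 377 on day 1 and 1956, 1746 and 1785 on day 3, and rose by 2.14 ± 0.31 on the log2 scale (adjusted p = 0.00128). Mmp3, stromelysin, went the other way, from 12474, 9978 and 9846 to 5455, 5253 and 4549, and fell by 1.08 ± 0.11 on the log2 scale (adjusted p = 0.000175), as did the collagenase Mmp13, which fell by 1.03 ± 0.26 on the log2 scale (adjusted p = 0.0226), a call lost without day 1 replicate 1 (adjusted p = 0.0592), day 3 replicate 1 (adjusted p = 0.102) or day 3 replicate 2 (adjusted p = 0.0962). Neither Mmp12 nor Mmp3 overlapped between the days. Adamts7, which cleaves matrix proteins of vessels and cartilage, rose by 1.20 ± 0.31 on the log2 scale (adjusted p = 0.0260), with a present call on 2 of 3 arrays of day 1, a call lost without day 1 replicate 2 or day 3 replicate 1, 2 or 3, each left out alone (adjusted p = 0.0544 to 0.0896). Falls of the list numbered 4 with median centring, and 1 without day 1 replicate 1, 1 without day 3 replicate 1 and 1 without day 3 replicate 2. The neutrophil collagenase Mmp8 had a log2 change of -2.26 ± 0.70 (adjusted p = 0.0512) and was not called here. Some alternatives called it, with an adjusted p of 0.0180 after quantile normalization, 0.0450 after median centring and 0.000691 over the 6 arrays alone. Timp1, the main inhibitor, had a log2 change of 0.30 ± 0.21 (adjusted p = 0.342).

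Antiviral genes induced by interferon fell in large part. These genes encode sensors and blockers of viral RNA, and of 46 tested 38 fell (82.6%, against 4.54% of all genes) and 0 rose, with a median log2 change of -1.13. By 2-fold or more, 32 fell. Relative to the mean of day 1, the list stood at -0.27 to 0.18 on the day 1 arrays, -1.53 to -0.86 on those of day 3 and -1.83 to -1.70 on those of day 0. Ifit3 went from 5662, 5313 and 7736 to 975, 690.2 and 1711, Mx1, a GTPase that blocks influenza virus, fell by 2.41 ± 0.36 on the log2 scale (adjusted p = 0.00153), and Irf7, the factor that amplifies interferon, fell by 1.36 ± 0.20 on the log2 scale (adjusted p = 0.00148). The members not called lay between -0.54 ± 0.25 (adjusted p = 0.161) for Oas2 and 0.09 ± 0.16 (adjusted p = 0.730) for Lgals3bp, with Oas2 called without day 1 replicate 2 at -0.84 (adjusted p = 0.0289) and with the replicate block (adjusted p = 0.0471).

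The sequence GAAANNGAA, the core of the interferon-stimulated response element, was looked for in the promoters of 34 matched members (RefSeq, GRCm38.p6, both strands). It was found in 40.0% of the promoters of the list and 8.56% of all promoters of the same length (7.24% of those of genes tested). For the 28 matched members that fell the share was 37.8% of promoters, not above that of the list. The stretches of 150 bases before the start of the falling genes Ifit1 and Ifit3 are given because they hold more than 1 match each, with matches on either strand in capitals.
Ifit1 (chr19:34640739-34640888, plus strand): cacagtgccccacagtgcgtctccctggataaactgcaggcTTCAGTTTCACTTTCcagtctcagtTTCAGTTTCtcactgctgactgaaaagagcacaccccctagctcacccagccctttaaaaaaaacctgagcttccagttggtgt
Ifit3 (chr19:34583379-34583528, plus strand): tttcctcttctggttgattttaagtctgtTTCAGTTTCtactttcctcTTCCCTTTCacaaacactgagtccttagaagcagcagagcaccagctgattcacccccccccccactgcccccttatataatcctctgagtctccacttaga
In Ifit1 the matches begin 109, 103 and 84 bases before the start, the first pair overlapping, and in Ifit3 121 and 102 bases before it. Ifit2 holds none in the same stretch of either of its listed promoters.

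Genes induced by interferon gamma fell as well. Of 24 GTPases, chemokines and genes of peptide loading tested, 15 fell (62.5%) and 0 rose, with a median log2 change of -0.88. Cxcl11 and Cxcl10, chemokines that attract activated T cells, fell by 2.38 ± 0.34 on the log2 scale (adjusted p = 0.00113) and 1.84 ± 0.26 on the log2 scale (adjusted p = 0.00110), and Gbp2, a GTPase of defence against intracellular microbes, fell by 1.77 ± 0.18 on the log2 scale (adjusted p = 0.000153). Cxcl10 had a geometric mean signal of 1950.5 on day 0, 5986 on day 1 and 1670.5 on day 3, and Gbp2 of 3462, 6559 and 1928. Ifng, the gene of interferon gamma itself, had a log2 change of -0.48 ± 0.39 (adjusted p = 0.429). Falls of the list numbered 9 without day 3 replicate 2.

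**Figure D3:**
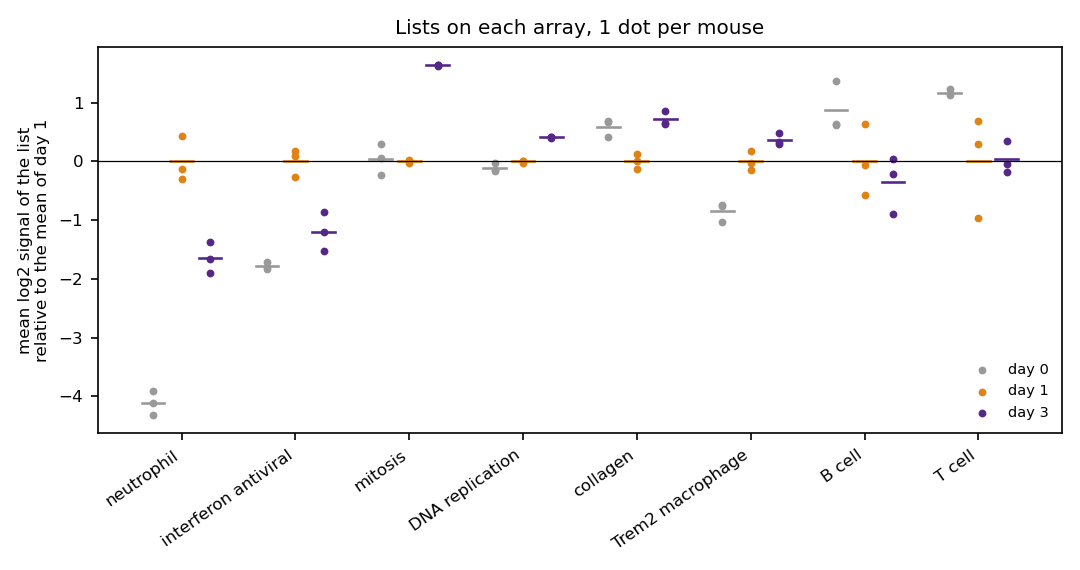
Mean log2 MAS5 signal of 8 gene lists on each array, relative to the mean of the day 1 arrays (y axis), with 1 dot per mouse and a line at the mean of each day. The mitosis list lies at 1.62 to 1.65 on day 3 against -0.03 to 0.03 on day 1, the neutrophil and interferon antiviral lists lie below day 1 on every day 3 array, and the B cell and T cell lists overlap between days 1 and 3.

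Neutrophil genes fell in large part, and on day 3 the mean of the list was above day 0 on every array. Of 24 tested, 17 fell (70.8%) and 0 rose, with a median log2 change of -1.69. Members such as Stfa3 and Olfm4 passed the filter on detection only through day 1, where they were higher. Over genes present on all 6 arrays, 13 of 17 fell and 0 rose, with a median log2 change of -1.64. The list stood at -0.30 to 0.43 on the day 1 arrays, -1.89 to -1.37 on day 3 and -4.32 to -3.90 on day 0, again relative to the mean of day 1. S100a8, a subunit of the calcium-binding complex calprotectin, had signals of 31711, 32271 and 17203 on day 1 and 6138, 9728 and 3624 on day 3, and fell by 2.12 ± 0.32 on the log2 scale (adjusted p = 0.00177), while its day 0 signals were 287, 416 and 354. Its partner S100a9 fell by 2.36 ± 0.29 on the log2 scale (adjusted p = 0.000447). G0s2, a regulator of lipases that neutrophils also express, fell by 2.43 ± 0.33 on the log2 scale (adjusted p = 0.000871), and Csf3r, the receptor of the neutrophil growth factor G-CSF, fell by 0.82 ± 0.19 on the log2 scale (adjusted p = 0.0155), a call lost without day 3 replicate 1 (adjusted p = 0.0669) or day 3 replicate 3 (adjusted p = 0.0554). The chemokine receptor Cxcr2 had a log2 change of -0.62 ± 0.26 (adjusted p = 0.125), not called, and falls of the list numbered 10 without day 3 replicate 1.

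Chemokines fell in part. Of 8 genes of neutrophil-attracting chemokines and their receptors, 2 fell (25%, against 4.54% of all genes). Ppbp, also a product of platelets, fell by 1.28 ± 0.25 on the log2 scale (adjusted p = 0.00766), and Cxcl3 fell by 1.03 ± 0.21 on the log2 scale (adjusted p = 0.00836). Cxcl1 had a log2 change of -0.08 ± 0.08 (adjusted p = 0.512), Cxcl2 of -0.16 ± 0.08 (adjusted p = 0.179) and Cxcl5 of -0.47 ± 0.20 (adjusted p = 0.137), none of them called. Of 15 CC chemokines, 6 fell (40%, against 4.54% of all genes) and 0 rose. Ccl12, which attracts monocytes, had signals of 13719, 13936 and 9229 on day 1 and 2951, 2589.9 and 3536 on day 3, without overlap, and fell by 2.01 ± 0.18 on the log2 scale (adjusted p = 0.000101). Ccl11, which attracts eosinophils, fell by 1.09 ± 0.18 on the log2 scale (adjusted p = 0.00239), and Ccl3 fell by 1.05 ± 0.15 on the log2 scale (adjusted p = 0.00112). Ccl2, the main monocyte attractant, had a log2 change of -0.33 ± 0.11 (adjusted p = 0.0676) and was not called.

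Inflammatory cytokines and targets of NF-kB fell or were not called. Of 37 tested, 14 fell (37.8%) and 0 rose, with a median log2 change of -0.36. Acod1, which makes itaconate in activated macrophages, fell by 1.81 ± 0.34 on the log2 scale (adjusted p = 0.00579), and Il1a, an alarm cytokine, fell by 1.75 ± 0.42 on the log2 scale (adjusted p = 0.0180), a call lost without day 3 replicate 1 (adjusted p = 0.0718) or day 3 replicate 2 (adjusted p = 0.0502). The cytokine genes Il1b, Tnf and Il6 fell by 0.81 ± 0.18 on the log2 scale (adjusted p = 0.0133), 0.81 ± 0.16 on the log2 scale (adjusted p = 0.00785) and 0.64 ± 0.16 on the log2 scale (adjusted p = 0.0243). Il1b was not called without day 3 replicate 1 (adjusted p = 0.0595), and Il6 was not called without day 1 replicate 1 or 2 or day 3 replicate 1 or 3, each left out alone (adjusted p = 0.0588 to 0.108). Inhibitors of the NF-kB pathway stood at -0.03 ± 0.07 (adjusted p = 0.850) for Nfkbia and -0.25 ± 0.09 (adjusted p = 0.0913) for Tnfaip3. Falls of the list numbered 8 without day 3 replicate 1. The neutrophil list fell over the same arrays, and its part in these changes was not tested.

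Acute phase and complement genes fell for the larger part. Of 19 tested, 12 fell (63.2%) and 0 rose, with a median log2 change of -0.56. Lcn2, the iron-scavenging lipocalin that neutrophils carry too, had signals of 4882, 4028 and 3441 on day 1 and 595, 1645 and 647 on day 3, without overlap, and fell by 2.25 ± 0.32 on the log2 scale (adjusted p = 0.00105). Saa2 fell by 1.42 ± 0.30 on the log2 scale (adjusted p = 0.010), the copper carrier Cp fell by 1.29 ± 0.18 on the log2 scale (adjusted p = 0.00101), and complement factor B, Cfb, fell by 0.66 ± 0.17 on the log2 scale (adjusted p = 0.0255), a call lost without day 1 replicate 1 or 2 or day 3 replicate 1 or 2, each left out alone (adjusted p = 0.0742 to 0.0969). Probe sets of Saa1 and Saa2, close copies of each other, can share transcripts. Falls numbered 6 without day 3 replicate 1 and 7 without day 3 replicate 3.

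Of 14 monocyte genes, 5 fell (35.7%, against 4.54% of all genes) and 1 rose (7.14%, against 9.66%). Beside Chil3, Ms4a4c fell by 1.57 ± 0.25 on the log2 scale (adjusted p = 0.00212) and Treml4, a receptor of nonclassical monocytes, fell by 1.01 ± 0.24 on the log2 scale (adjusted p = 0.0183), a call lost without day 3 replicate 1 (adjusted p = 0.0544), day 3 replicate 2 (adjusted p = 0.0690) or day 3 replicate 3 (adjusted p = 0.0537). Csf1r, the receptor that keeps monocytes and macrophages alive, rose by 0.60 ± 0.11 on the log2 scale (adjusted p = 0.00439). Ccr2, the receptor that draws monocytes out of the marrow, had a log2 change of -0.17 ± 0.22 (adjusted p = 0.621) and was not called. Adgre1, a surface antigen of macrophages, rose by 0.69 ± 0.15 on the log2 scale (adjusted p = 0.0111), a call lost without day 3 replicate 1 (adjusted p = 0.0630).

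Among genes of resident macrophages, 7 of 21 fell (33.3%) and 2 rose (9.52%, near the 9.66% of all genes). Rises of the list numbered 4 with quantile normalization and 1 without day 3 replicate 1, and falls numbered 7 and 5 there. The falls included lectins of the CD209 family, with Cd209g at -1.67 ± 0.23 (adjusted p = 0.000888) and Cd209d at -1.24 ± 0.20 (adjusted p = 0.00251), and Timd4, a receptor for dying cells, at -0.90 ± 0.15 (adjusted p = 0.00259). Stab1, a scavenger receptor, rose by 1.29 ± 0.16 on the log2 scale (adjusted p = 0.000553). Mrc1, the mannose receptor CD206, had a log2 change of -0.11 ± 0.15 (adjusted p = 0.660), and C1qa, of the first complement component, of 0.16 ± 0.11 (adjusted p = 0.368). Cd209g stood at geometric mean signals of 5353, 6562 and 2058 on days 0, 1 and 3, and Stab1 at 709, 674 and 1651.

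Trem2, a lipid-sensing receptor of macrophages in fat and other tissues, was the largest rise of the list of macrophages that carry it. It had signals of 436, 220.3 and 202 on day 1 and 1535, 1228 and 1137 on day 3, without overlap, and rose by 2.26 ± 0.37 on the log2 scale (adjusted p = 0.00275), with a present call on 1 of 3 arrays of day 1. Of the 21 members of the list 5 rose (23.8%), Mmp12 among them, and 0 fell, with Atp6v0d2, a proton pump subunit, at 1.06 ± 0.25 (adjusted p = 0.0171), a call lost without day 1 replicate 2 (adjusted p = 0.0532) or day 3 replicate 1 (adjusted p = 0.0842). Members named for this state in other tissues were not called, with log2 changes of -0.07 ± 0.14 (adjusted p = 0.778) for Gpnmb, -0.22 ± 0.19 (adjusted p = 0.457) for Lgals3 and -0.32 ± 0.15 (adjusted p = 0.175) for Cd9. Itgax, the integrin CD11c, had a log2 change of 0.51 ± 0.19 (adjusted p = 0.0883) and was called only with array weights or with the replicate number as a block. Rises numbered 10 with quantile normalization, 3 over genes present on all 6 arrays, and 3 without day 3 replicate 1.

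Of 20 scavenger and clearance receptors, 4 rose (20%, against 9.66% of all genes) and 1 fell (5%, near the 4.54% of all genes). Cd5l, a secreted protein of macrophages that binds lipid and debris, had signals of 752, 798 and 791 on day 1 and 3624, 3081 and 3045 on day 3, and rose by 2.05 ± 0.30 on the log2 scale (adjusted p = 0.00123). The 3 mice of day 3 were all above those of day 1, which in turn were above a geometric mean of 211 on day 0. Of 33 lysosomal genes, 8 rose (24.2%) and 4 fell (12.1%). Gusb, beta-glucuronidase, rose by 0.93 ± 0.12 on the log2 scale (adjusted p = 0.000474), and Gla, alpha-galactosidase, fell by 1.05 ± 0.20 on the log2 scale (adjusted p = 0.00563). Rises of the lysosomal list numbered 5 with median centring, with no filter on detection or without the variance trend, and 4 without day 1 replicate 2, 2 without day 3 replicate 1 and 4 without day 3 replicate 2, its falls 2 without day 1 replicate 1, 1 without day 1 replicate 2, 1 without day 3 replicate 1, 2 without day 3 replicate 2 and 2 without day 3 replicate 3, and rises of the receptor list 2 without day 3 replicate 1 and 2 without day 3 replicate 2. In the list of arginine and itaconate metabolism, 2 of 10 fell (20%, against 4.54% of all genes). They were Acod1 and Sat1, which acetylates polyamines, at -0.73 ± 0.14 (adjusted p = 0.00632).

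Of 21 genes of dendritic cells and MHC class II, 1 rose (4.76%, against 9.66% of all genes) and 2 fell (9.52%, against 4.54%). Fscn1, an actin bundler of mature dendritic cells and of other motile cells, rose by 0.91 ± 0.13 on the log2 scale (adjusted p = 0.00129). Cd86, a costimulator of T cells, fell by 1.16 ± 0.20 on the log2 scale (adjusted p = 0.00349), while a further probe set gave -0.36 ± 0.17 (adjusted p = 0.195 over all probe sets). Cd209a, a lectin of monocyte-derived dendritic cells, fell by 0.86 ± 0.25 on the log2 scale (adjusted p = 0.0415). The class II chain H2-Ab1 had a log2 change of -0.38 ± 0.15 (adjusted p = 0.114). Cd209a was not called without day 0 replicate 1 or 3, day 1 replicate 1 or 2 or day 3 replicate 2 or 3, each left out alone (adjusted p = 0.0508 to 0.138).

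Genes of mast cells, basophils and eosinophils fell in 7 of 16 cases (43.8%, against 4.54% of all genes) and rose in 0, with a median log2 change of -0.81. Over genes present on all 6 arrays, 5 of 12 fell and 0 rose, with a median log2 change of -0.75. Rnase2a, 1 of the largest falls above, had signals of 1570.1, 904 and 532 on day 1 and 164, 163 and 158 on day 3. Fcer1a, the receptor chain that binds IgE, fell by 1.59 ± 0.33 on the log2 scale (adjusted p = 0.00957), Hdc, which makes histamine, fell by 1.46 ± 0.20 on the log2 scale (adjusted p = 0.000911), and the cytokine Il4 fell by 1.26 ± 0.30 on the log2 scale (adjusted p = 0.0171), a call lost without day 1 replicate 1 (adjusted p = 0.0526) or day 3 replicate 1 (adjusted p = 0.0607). Hdc stood at geometric mean signals of 722, 2703 and 981 on days 0, 1 and 3. The growth factor receptor Kit had a log2 change of 0.12 ± 0.20 (adjusted p = 0.732) and was not called.

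The T cell and B cell lists spread widely between the mice of day 1, and their days overlapped. Relative to the mean of day 1, the T cell list was at -0.97, 0.29 and 0.68 on day 1 replicates 1, 2 and 3 and at -0.18, -0.05 and 0.36 on those of day 3. The B cell list was at -0.58, -0.06 and 0.63 and -0.22, -0.89 and 0.03, and the list of lymph node vessels and stroma at -0.67, 0.13 and 0.54 and -0.70, -1.20 and -0.82. Replicate 1 of day 1 was lowest and replicate 3 highest of day 1 in all of these lists. Of 24 T cell genes 1 rose (4.17%, against 9.66% of all genes) and 0 fell. The rise was of Thy1, which stromal cells express too, by 0.87 ± 0.13 on the log2 scale (adjusted p = 0.00128). Without day 1 replicate 1 the count of falls was 6, and without day 1 replicate 3 the count of rises was 5.

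Of 17 B cell genes, 2 fell (11.8%, against 4.54% of all genes), both of immunoglobulin: Jchain, above, and Ighm, the heavy chain of IgM, which fell by 1.33 ± 0.34 on the log2 scale (adjusted p = 0.0227), a call lost without day 1 replicate 2 (adjusted p = 0.0857), day 3 replicate 1 (adjusted p = 0.0671) or day 3 replicate 2 (adjusted p = 0.0963). The 6 other probe sets of Ighm did not pass, from -0.23 ± 0.41 (adjusted p = 0.753 over all probe sets) to -3.53 ± 1.05 (adjusted p = 0.0516 over all probe sets). Cd79a, of the B cell receptor, had a log2 change of 0.13 ± 0.34 (adjusted p = 0.826), and Ms4a1, the CD20 antigen, of -0.71 ± 0.30 (adjusted p = 0.139). Of 4 genes of lymph node vessels and stroma, Cxcl13, which attracts B cells, had signals of 12825, 14071 and 10362 on day 1 and 2581, 2696 and 3300.2 on day 3, and fell by 2.12 ± 0.14 on the log2 scale (adjusted p = 1.19e-05), while Glycam1 stood at -0.86 ± 0.63 (adjusted p = 0.382) and Madcam1 at -0.62 ± 0.33 (adjusted p = 0.225). Without day 1 replicate 1, Glycam1 was called at -1.82 (adjusted p = 0.00539) and Ms4a1 at -1.04 (adjusted p = 0.0320). The days did not overlap for Cxcl13, and the part of lymph node tissue in these changes was not tested. Of 19 genes of NK and cytotoxic cells, 3 fell (15.8%, against 4.54% of all genes). The receptor Klrk1 fell by 1.85 ± 0.39 on the log2 scale (adjusted p = 0.00966), the chemokine Xcl1 fell by 1.06 ± 0.22 on the log2 scale (adjusted p = 0.0103), and the granzyme Gzmk fell by 0.79 ± 0.23 on the log2 scale (adjusted p = 0.0439), with a present call on 2 of 3 arrays of day 3. Gzmk was not called without day 0 replicate 2, day 1 replicate 1, 2 or 3 or day 3 replicate 1 or 2, each left out alone (adjusted p = 0.0507 to 0.162).

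Among stromal progenitor genes, 7 of 25 fell (28%, against 4.54% of all genes) and 2 rose (8%, against 9.66%). Cd24a, found on adipocyte progenitors and on many leukocytes, fell by 1.40 ± 0.16 on the log2 scale (adjusted p = 0.0003). Sfrp2, a secreted modulator of Wnt signals, had signals of 2382, 2062 and 2929 on day 1 and 6569, 6687 and 5621 on day 3, and rose by 1.37 ± 0.14 on the log2 scale (adjusted p = 0.000151). Its days did not overlap, and on day 0 the geometric mean was 5590.1. Fmo2, a monooxygenase, fell by 0.81 ± 0.21 on the log2 scale (adjusted p = 0.0253), a call lost without day 1 replicate 2 or day 3 replicate 1, 2 or 3, each left out alone (adjusted p = 0.0553 to 0.0969). Pi16 and Dpp4, which mark early progenitors, fell by 0.66 ± 0.17 on the log2 scale (adjusted p = 0.0225) and 0.55 ± 0.17 on the log2 scale (adjusted p = 0.0491). Pi16 was not called without day 1 replicate 2 (adjusted p = 0.0860), day 3 replicate 1 (adjusted p = 0.0773) or day 3 replicate 3 (adjusted p = 0.0831), and Dpp4 was not called without day 0 replicate 3, day 1 replicate 1 or 2 or day 3 replicate 1, 2 or 3, each left out alone (adjusted p = 0.0606 to 0.171). Cd34 had a log2 change of -0.12 ± 0.15 (adjusted p = 0.612), and Pdgfra of -0.16 ± 0.14 (adjusted p = 0.485) by its brightest probe set and -0.72 ± 0.18 (adjusted p = 0.0261 over all probe sets) by another. Pdgfra was called with the mean of its probe sets, at -0.50 (adjusted p = 0.0359). Falls of the list numbered 4 with no filter on detection, 3 without the variance trend, and 3 without day 1 replicate 2, 1 without day 3 replicate 1, 3 without day 3 replicate 2 and 3 without day 3 replicate 3.

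Of 26 endothelial genes, 3 rose (11.5%) and 1 fell (3.85%), near the shares of all genes (9.66% and 4.54%), with a median log2 change of 0.28. Aplnr, the apelin receptor of sprouting vessels, had signals of 1652, 1920.0 and 1582 on day 1 and 6012, 4899.6 and 4268 on day 3, without overlap, and rose by 1.55 ± 0.21 on the log2 scale (adjusted p = 0.000911). Cdh5, which joins endothelial cells, rose by 0.78 ± 0.13 on the log2 scale (adjusted p = 0.00350), and Lyve1, of lymphatic vessels and some macrophages, fell by 0.85 ± 0.13 on the log2 scale (adjusted p = 0.00187). Pecam1, the CD31 antigen, had a log2 change of 0.20 ± 0.15 (adjusted p = 0.404) and was not called. Among 13 genes of pericytes and smooth muscle, 3 rose (23.1%, against 9.66% of all genes) and 1 fell (7.69%, against 4.54%). Mcam rose by 1.12 ± 0.17 on the log2 scale (adjusted p = 0.00188), Smtn, of the contractile apparatus, rose by 1.07 ± 0.19 on the log2 scale (adjusted p = 0.00465), Notch3 rose by 0.45 ± 0.13 on the log2 scale (adjusted p = 0.0337) and Myh11, the smooth muscle myosin, fell by 0.72 ± 0.20 on the log2 scale (adjusted p = 0.0346). Notch3 was not called without day 1 replicate 1, 2 or 3 or day 3 replicate 1, 2 or 3, each left out alone (adjusted p = 0.0527 to 0.115), and Myh11 was not called without day 1 replicate 1 or 3 or day 3 replicate 2 or 3, each left out alone (adjusted p = 0.0618 to 0.127).

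Of 36 growth factors and receptors tested, 7 rose (19.4%, against 9.66% of all genes) and 1 fell (2.78%, against 4.54%). The rises were of receptors and ligands of vessels and mesenchyme: Tie1 by 0.96 ± 0.19 on the log2 scale (adjusted p = 0.00666), Pdgfb by 0.88 ± 0.18 on the log2 scale (adjusted p = 0.00798) and Flt4, the receptor of lymphatic growth, by 0.72 ± 0.17 on the log2 scale (adjusted p = 0.0159), with a present call on 2 of 3 arrays of day 1. Vegfb, Vegfc, Tgfb1 and Tgfb2 rose by 0.55, 0.65, 0.58 and 0.67 on the log2 scale, and each was lost without day 3 replicate 1 (adjusted p = 0.158, 0.114, 0.0855 and 0.0633) and without other single arrays. Hbegf, a ligand of the epidermal growth factor receptor, fell by 0.72 ± 0.18 on the log2 scale (adjusted p = 0.0224). Vegfa, the main angiogenic factor, had signals of 2048, 1060.1 and 1626 on day 1 and 1308, 1759 and 1120.1 on day 3, which overlapped, and a log2 change of -0.15 ± 0.22 (adjusted p = 0.679). Hif1a, which induces it under low oxygen, stood at -0.04 ± 0.12 (adjusted p = 0.858). Flt4 was not called without day 1 replicate 2 (adjusted p = 0.0621), day 3 replicate 2 (adjusted p = 0.0599) or day 3 replicate 3 (adjusted p = 0.0606), and Hbegf was not called without day 1 replicate 1 or 2 or day 3 replicate 1, 2 or 3, each left out alone (adjusted p = 0.0540 to 0.0752). Rises numbered 3 with quantile normalization, 4 with median centring, and 2 without day 1 replicate 2, 3 without day 3 replicate 1, 2 without day 3 replicate 2 and 4 without day 3 replicate 3, and falls numbered 4 without day 1 replicate 3.

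Of 23 HIF factors and hypoxia targets 1 rose (4.35%, against 9.66% of all genes) and 0 fell. The rise was of Hmox1, which degrades heme, at 0.63 ± 0.18 (adjusted p = 0.0380). Of 20 glycolytic genes 1 fell (5%, near the 4.54% of all genes) and 0 rose. The fall was of the lactate transporter Slc16a1, at -0.68 ± 0.17 (adjusted p = 0.0225). Among 66 genes of the respiratory chain, 1 rose and 1 fell (1.52% each, against 9.66% and 4.54% of all genes). Cycs, cytochrome c, fell by 0.54 ± 0.15 on the log2 scale (adjusted p = 0.0380) and Sdhd, of complex II, rose by 0.40 ± 0.11 on the log2 scale (adjusted p = 0.0300). Hmox1 was not called without day 1 replicate 2 (adjusted p = 0.126), day 3 replicate 1 (adjusted p = 0.148) or day 3 replicate 2 (adjusted p = 0.133), Slc16a1 was not called without day 1 replicate 1 or 2 or day 3 replicate 1 or 3, each left out alone (adjusted p = 0.0582 to 0.104), Cycs was not called without day 0 replicate 3, day 1 replicate 1 or 2 or day 3 replicate 1, 2 or 3, each left out alone (adjusted p = 0.0576 to 0.137), and Sdhd was not called without day 1 replicate 1 or 2 or day 3 replicate 1 or 2, each left out alone (adjusted p = 0.0764 to 0.137). Respiratory chain falls numbered 14 with array weights and 23 without day 1 replicate 3. None of 18 genes of cholesterol synthesis was called in limma, and 3 had an unadjusted p under 0.05, while 3 rose without day 1 replicate 3 and 2 with array weights.

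Chaperones of the endoplasmic reticulum, where secreted proteins fold, fell in 7 of 28 cases (25%, against 4.54% of all genes) and rose in 3 (10.7%, near the 9.66% of all genes). Sdf2l1 fell by 1.02 ± 0.17 on the log2 scale (adjusted p = 0.00269) and Dnajb9 fell by 0.63 ± 0.12 on the log2 scale (adjusted p = 0.00502), both induced by unfolded protein. Kdelr3, which returns escaped residents to the reticulum, rose by 0.93 ± 0.15 on the log2 scale (adjusted p = 0.00224). The main chaperone Hspa5 had a log2 change of -0.28 ± 0.09 (adjusted p = 0.0577) and was not called. Falls numbered 11 with median centring, 11 with array weights, 4 without the variance trend, and 3 without day 1 replicate 1, 4 without day 1 replicate 2, 12 without day 1 replicate 3, 3 without day 3 replicate 1 and 3 without day 3 replicate 3. Of 22 immediate early genes 1 fell (4.55%, near the 4.54% of all genes), Atf3 at -0.43 ± 0.12 (adjusted p = 0.0284), and 0 rose. Atf3 was not called without day 1 replicate 1 or 2 or day 3 replicate 2 or 3, each left out alone (adjusted p = 0.0617 to 0.125), and without day 1 replicate 3 the immediate early rises numbered 3.

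Of 23 adipocyte genes, 1 rose (4.35%, against 9.66% of all genes) and 1 fell (4.35%, near the 4.54% of all genes). The rise was of Scd2, a fatty acid desaturase, by 1.13 ± 0.14 on the log2 scale (adjusted p = 0.000543). Cidec, a lipid droplet protein, fell by 1.21 ± 0.24 on the log2 scale (adjusted p = 0.00699), with a present call on 2 of 3 arrays of day 3. Adipocyte rises numbered 3 without day 1 replicate 3. The 7 skeletal muscle, 2 epithelial and 5 erythroid and platelet genes tested gave no call in limma, and 0, 0 and 2 of them had an unadjusted p under 0.05. Ptprc, the leukocyte antigen CD45, had signals of 12592, 15859 and 16615 on day 1 and 12498, 11763 and 14280.3 on day 3, which overlapped, and a log2 change of -0.22 ± 0.12 (adjusted p = 0.232).

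**Figure D4:**
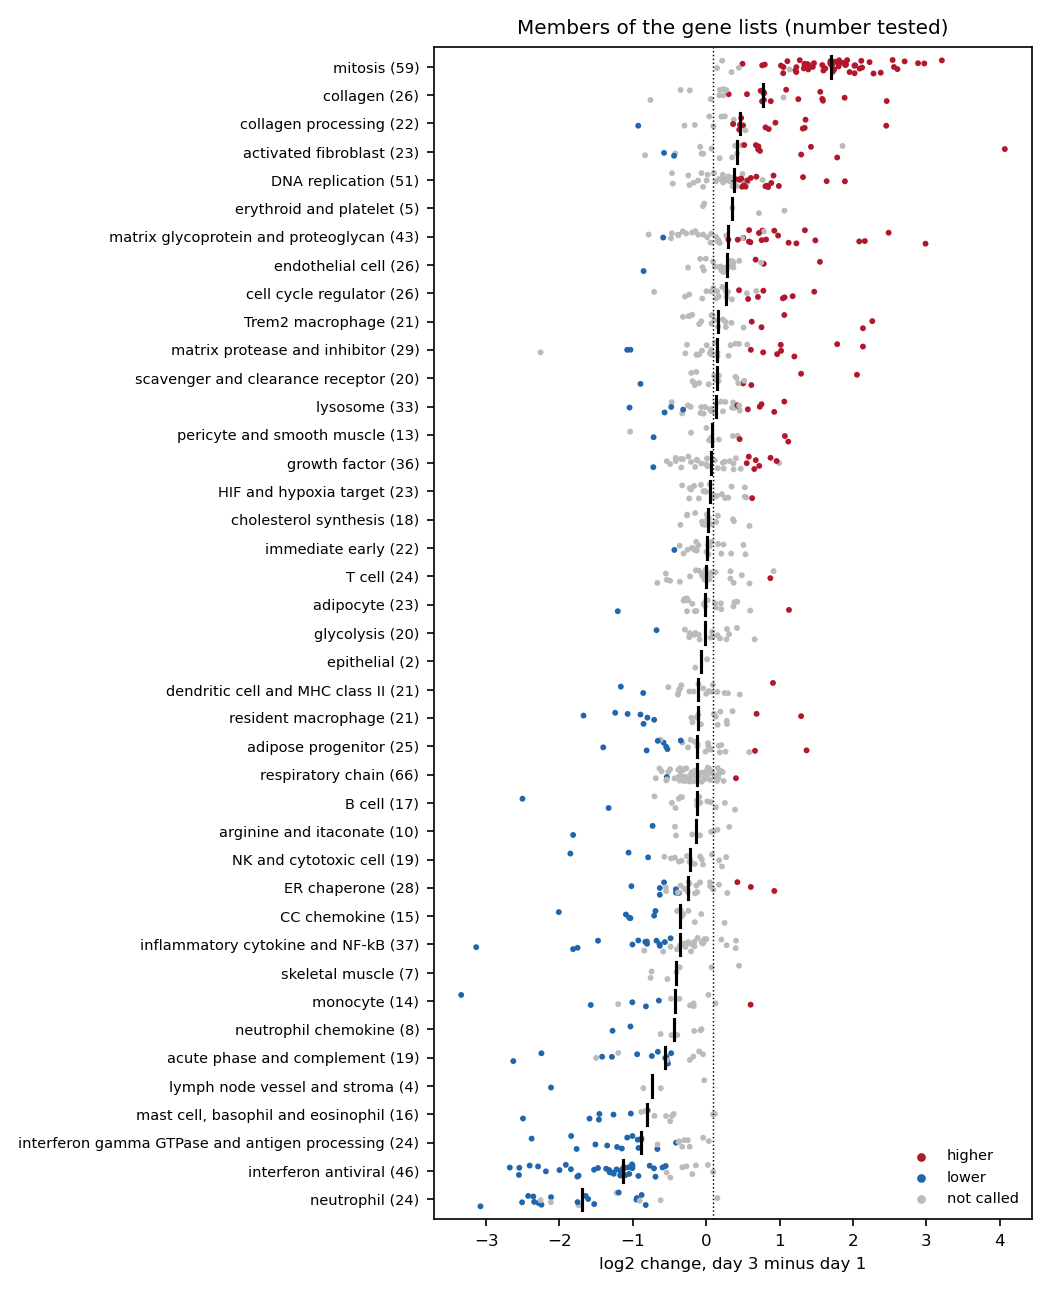
Log2 change from day 1 to day 3 (x axis) of each tested member of 41 gene lists, with the number tested behind the name of the list. Each dot is 1 gene, red where it rose, blue where it fell and grey where it was not called, the black bar is the median of the list, and the dotted line is the median of all genes tested, 0.09. The mitosis and collagen lists lie farthest to the right and the neutrophil and interferon lists farthest to the left.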

How the data were processed

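RNA of the SVF was measured on 9 arrays, 3 mice each on days 0, 1 and 3, grouped by their labels. The authors deposited, for each array, MAS5 signal intensity on a linear scale, which proved to be scaled to a mean of 500 after trimming 2% of the probe sets at each end. The detection calls and detection p-values deposited by the authors are those of MAS5. The MAS5 version is not given in the sources used here. A joint table of all arrays held the same values within 0.0005%. Of 45101 probe sets, 34945 had 1 gene symbol in the platform annotation, 932 had several and 9160 had none, and 64 were controls. Probe sets with 1 symbol were kept where some day had a present call on each of its 3 arrays, and the brightest stood for each of 11796 genes. A gene could thus pass through only the day on which it was high. Of genes named by the rule, Adamts7, Bub1b, E2f8, Fbn2, Gjb5, P4ha3 and Trem2 passed only through day 3, where they were higher. Ifit1bl2, Olfm4, Sptssb and Stfa3 passed only through day 1, where they were higher.

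Signals were taken to log2 without an offset and fitted with limma 3.58.1 (R 4.3.3, lmFit and eBayes with a variance trend). All 9 arrays entered 1 fit, day 3 was contrasted with day 1, with the Benjamini-Hochberg adjustment made over every gene. The script was tested on simulated data. The number of arrays limits the precision. The arrays of a day are biological replicates per the labels and individual mice per the study's methods, and scan batches were not given.

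The 41 gene lists hold 1156 entries, of which 986 (958 different genes) were tested. The comparison, lists and members were chosen with earlier results of these data known. Named genes were the 15 genes with the largest rise and the 15 with the largest fall, out of those called without overlap of the days and present on the brighter day, up to 3 called members of each list with the largest change and 1 against its majority, and genes of proteins the study measured, 119 in all. Further members named in the text were chosen after their values were seen. Alternatives covered normalization, offset, filter, probe sets, variance model, arrays in the fit, replicate block, single arrays left out, threshold and the methods' analysis of variance. Promoter sequences are of RefSeq (GRCm38.p6).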

Additional observations from a re-analysis of the deposited data

How the results depend on the processing

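Counts of genes called were less stable than the direction of the named genes. The 1140 rises and 536 falls became 659 and 860 with median centring, 1718 and 896 with array weights, and 422 and 207 at an adjusted p under 0.01. With 64 added to the signals, 141 genes rose by 2-fold or more. Leaving out single arrays gave 474 to 1823 rises and 253 to 1000 falls, and at 2-fold or more 200 to 337 rises and 142 to 226 falls. The counts moved most without day 1 replicate 3 (1823 rises and 1000 falls), day 1 replicate 2 (620 and 341), day 3 replicate 1 (496 and 253) and day 3 replicate 2 (474 and 279), and rises numbered 757 without day 3 replicate 3. Counts stayed within 1.5 times under the other alternatives run. Of the 1676 genes called, 1248 were also called in the same direction with quantile normalization, 1195 with median centring and 1431 in the fit of the 6 arrays of days 1 and 3.

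With the replicate number as a block, 1746 genes were called (1130 rises and 616 falls), 1543 of them among the 1676. Deviations from the means of the days correlated at 0.08, -0.01 and 0.21 between arrays of the same number, and day 1 replicate 1 correlated best with day 3 replicate 2 (0.16), so the numbers were not taken to pair the mice.

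Of 110 called genes named by the rule, 84 kept the call in every alternative run, 25 lost it when at least 1 array was left out, 15 lost it in another alternative, and 0 changed direction. Those 15 were Adamts7, Atf3, Cd209a, Cdca3, Cycs, Gzmk, Hbegf, Hmox1, Ighm, Lcn8, Mybl2, Myh11, P4ha3, Pdpn and Sdhd, and the cause was not tested. Among genes named beyond the rule, Col1a2, Dcn, Dpp4, Il6, Notch3, Pi16, Tgfb1, Tgfb2, Vegfb and Vegfc also lost the call in an alternative other than leaving out an array. Ccl2, Col3a1, Glycam1, Hspa5, Mmp8, Ms4a1, Oas2 and Tnfaip3 were not called in the report and gained a call in at least 1 alternative. Further probe sets that did not pass while the one used did gave 0.45 for Cdk6, -0.60 for Gla, -0.48 for Hbegf, -2.23 for Ifit1bl2, 0.52 for Pdgfb and 0.15 for Sdhd on the log2 scale. The median of the growth factor, hypoxia, cholesterol synthesis, immediate early, pericyte and resident macrophage lists changed sign with the scaling of the arrays, so no median is given for them. Genes near background are limited by the low signal on the dimmer day.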
